A study of Mus musculus with 12 samples.

Results

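The constitutive proteasome was examined at the transcript level in mouse splenic CD4+ T cells, before and after stimulation through the T-cell receptor. It was taken as 34 genes chosen by symbol: Psma1 to Psma7, Psmb1 to Psmb7, Psmc1 to Psmc6 and Psmd1 to Psmd14, with the interferon-inducible subunits of the immunoproteasome left out. All 34 were found among the 55414 gene records of the count table, all are protein coding, and they lie on 15 chromosomes. The 12 libraries came from wild-type male BALB/c mice aged 18 weeks, with 3 libraries in each of 4 groups. In the LIP group a silk ligature had been placed around the second maxillary molars of both sides for 14 days to induce periodontitis, and the CTL group was anesthetized without ligature. Splenic CD4+ T cells, purified by negative selection, were sequenced on day 0 without stimulation or on day 2 of culture with IL-2 at 10 ng/ml, anti-TCRβ at 1 µg/ml and anti-CD28 at 1 µg/ml, as the labels give it. The study's methods give other concentrations for IL-2 and anti-TCRβ, and the labels of CTL 93, LIP 96, CTL 97 and LIP 97 of day 2 name anti-CD29 or anti-CD30 in place of anti-CD28. These labels were treated as the same condition, and of the LIP libraries of day 2 only LIP 90 is labelled anti-CD28. Libraries are named here by group and by the number in their titles, so that LIP 90 is library 90 of the LIP group. A number alone does not name a mouse: a CTL and a LIP library carry 94 before culture, and a CTL and a LIP library carry 97 after it. What they mark, and whether each library came from 1 mouse, is not given in the sources used here, so the p-values measure only the spread between these libraries.

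The 26S proteasome degrades proteins that carry ubiquitin chains. Its barrel-shaped 20S core is built from rings of alpha subunits (Psma genes), which gate the entrance, and of beta subunits (Psmb genes), of which Psmb5, Psmb6 and Psmb7 encode the chymotrypsin-like, caspase-like and trypsin-like peptidases. The 19S regulatory particle caps the core: its base holds a ring of ATPases (Psmc genes) that unfold the substrate together with the scaffold and ubiquitin-binding subunits Psmd1, Psmd2 and Psmd4, and its lid holds the deubiquitinase Psmd14. Psmd5, Psmd9 and Psmd10 encode chaperones that assemble the base and are not part of the finished particle. In lymphocytes the inducible subunits Psmb8, Psmb9 and Psmb10 can take the places of Psmb5, Psmb6 and Psmb7 to form the immunoproteasome.

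In GRCm39 coordinates Psmb5 lies at chr14:54850776-54855481 on the minus strand, Psmb6 at chr11:70416183-70418684 on the plus strand, Psmc2 at chr5:21989254-22008796 on the plus strand, Psmc6 at chr14:45567215-45587169 on the plus strand, Psmd8 at chr7:28873612-28880135 on the minus strand and Psmd5 at chr2:34739746-34764980 on the minus strand. The promoters of these 6 members are shown because they carry the results that follow: Psmb5 and Psmb6 are catalytic, Psmd8 and Psmd5 had the highest and lowest log2 fold change over the culture, and Psmc2 and Psmc6 gave the largest differences between LIP and CTL on day 2. The windows are RefSeq sequences of GRCm38.p6, 250 bases before to 50 bases after a start site, written 5′ to 3′ on the strand of the gene. Capitals mark every match, on either strand, to the antioxidant response element core TGACNNNGC, to the ETS core CCGGAAG and to the CCAAT box, and no match shown overlaps another. Of the 2 windows of Psmc2 the first is shown.
Psmb5, chr14:54617946-54618245, minus strand: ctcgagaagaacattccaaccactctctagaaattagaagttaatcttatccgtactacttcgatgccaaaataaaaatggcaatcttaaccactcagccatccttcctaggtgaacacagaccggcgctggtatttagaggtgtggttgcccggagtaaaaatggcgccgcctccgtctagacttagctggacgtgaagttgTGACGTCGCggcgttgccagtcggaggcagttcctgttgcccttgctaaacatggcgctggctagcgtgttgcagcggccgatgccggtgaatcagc
Psmb6, chr11:70525107-70525406, plus strand: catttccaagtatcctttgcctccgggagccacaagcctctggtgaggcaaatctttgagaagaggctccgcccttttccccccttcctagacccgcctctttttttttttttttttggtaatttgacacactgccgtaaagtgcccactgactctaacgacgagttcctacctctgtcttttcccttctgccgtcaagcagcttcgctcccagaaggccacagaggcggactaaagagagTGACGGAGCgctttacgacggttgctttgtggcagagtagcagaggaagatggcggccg
Psmc2, chr5:21785025-21785324, plus strand: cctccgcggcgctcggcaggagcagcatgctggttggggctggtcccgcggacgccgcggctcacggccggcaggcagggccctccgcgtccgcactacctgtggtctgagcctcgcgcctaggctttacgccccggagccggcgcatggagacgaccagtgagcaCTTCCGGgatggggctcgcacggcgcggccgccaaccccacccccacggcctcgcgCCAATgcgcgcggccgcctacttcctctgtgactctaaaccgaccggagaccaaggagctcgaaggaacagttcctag
Psmc6, chr14:45329574-45329873, plus strand: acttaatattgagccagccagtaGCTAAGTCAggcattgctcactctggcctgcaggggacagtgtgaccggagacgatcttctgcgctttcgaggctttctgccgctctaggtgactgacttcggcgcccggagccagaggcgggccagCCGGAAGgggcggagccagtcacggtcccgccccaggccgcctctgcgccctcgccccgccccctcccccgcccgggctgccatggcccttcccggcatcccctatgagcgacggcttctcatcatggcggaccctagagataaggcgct
Psmd8, chr7:29180624-29180923, minus strand: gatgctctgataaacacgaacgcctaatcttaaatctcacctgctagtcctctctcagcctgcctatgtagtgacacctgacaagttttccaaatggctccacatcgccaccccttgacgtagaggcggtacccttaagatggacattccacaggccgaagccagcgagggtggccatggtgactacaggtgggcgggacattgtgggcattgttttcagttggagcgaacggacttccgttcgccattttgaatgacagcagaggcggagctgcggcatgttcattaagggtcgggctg
Psmd5, chr2:34870913-34871212, minus strand: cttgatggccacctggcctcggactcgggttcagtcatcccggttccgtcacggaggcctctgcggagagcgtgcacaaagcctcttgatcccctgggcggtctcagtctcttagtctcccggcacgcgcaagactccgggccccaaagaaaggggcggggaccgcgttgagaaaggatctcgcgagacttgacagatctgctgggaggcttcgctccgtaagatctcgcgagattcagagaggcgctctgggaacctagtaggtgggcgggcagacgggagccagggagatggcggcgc
RefSeq windows were at hand for 28 of the 34 members. The antioxidant response element core, a sequence that the proteasome regulator NRF1 (Nfe2l1) is known to bind, was found for 5 of these 28 genes, Psmb5, Psmb6, Psmc6, Psmd9 and Psmd12, and for 13.99% of all 27025 genes with a window. Counted from the start site, with negative positions before it, the match lay at -43 in Psmb5, -27 in Psmd9, -5 in Psmb6, -223 in Psmc6 and -243 in Psmd12. The ETS core was found for 10 of the 28 members, 35.7%, and for 9.93% of all genes, and the CCAAT box for 11 members and 41.1% of all genes. The windows of Psmd8 and Psmd5 held none of the 3 motifs. A match is a description of these letters and was not tested as a binding site.

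Library totals ranged from 6249018 to 12866718 counts, and the members took 0.156% to 0.176% of the counts on day 0 and 0.357% to 0.439% on day 2. Every member was measured in every library, with 76 counts in the lowest case and 4176 in the highest, so that no value rests on a few reads. The libraries carried the labelled cell type: Cd4 lay between 422 and 645 CPM (counts scaled to library size and normalized by TMM). The CD8 markers Cd8a and Cd8b1 summed to 13.2 and 9.20 CPM in LIP 96 and LIP 97 of day 2 and to between 4.43 and 6.74 in the other libraries. The 7 myeloid markers summed to 2.51 to 13.5 CPM over all libraries, with S100a8 and S100a9 at 0. The 4 NK markers summed to 2.29 to 7.24 CPM in CTL and 6.61 to 11.9 in LIP on day 0, and to 53.9 to 75.6 in CTL and 114 to 156 in LIP on day 2. On day 2 nearly all of that was Gzmb, which activated T cells also express, while Ncr1 and Klrb1c were at or below 0.749 CPM and Klra8 was at 0 in all libraries. The summed level of the 6 B-cell markers was 24.9, 37.0 and 35.1 CPM in CTL 97, LIP 96 and LIP 97 of day 2 and between 2.15 and 7.48 in the other 9 libraries. On day 2, LIP 96 and LIP 97 stood apart from the other libraries on the first principal component, at 47.2 and 43.2, while LIP 90, at -8.51, lay nearer to the CTL libraries, at -37.6 to -19.5. On day 0, CTL 94, at 16.04, lay among the LIP libraries, at 7.33 to 20.9. The main counts and medians between LIP and CTL are therefore also given without LIP 90 or CTL 94. Both libraries were picked for their place in these same data, so p-values of fits without them depend on that choice.

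Before stimulation the members were expressed at moderate and unequal levels. Levels of different genes were compared per kilobase of the canonical transcript, which does not account for other isoforms. In the CTL group on day 0, Psmb3, a structural beta subunit, was highest at 70.5 ± 2.09 CPM per kb (SD, n = 3), above Psmb4 at 43.3 ± 7.24 and the ubiquitin receptor Psmd4 at 42.5 ± 1.99. The assembly chaperone Psmd9 was lowest at 5.30 ± 0.63 CPM per kb, below Psmb2 at 6.96 ± 0.36, Psmd10 at 8.80 ± 1.65 and the catalytic Psmb5 at 9.21 ± 1.89. The middle of the order was not resolved: of 33 neighboring pairs in it, 5 were separated in all libraries of the CTL group on day 0, 8 in the LIP group on day 0, 5 in the CTL group on day 2 and 4 in the LIP group on day 2.

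The 14 genes of the 20S core encode subunits that are present in equal numbers in a core without inducible subunits. These genes spanned a 9.63- to 11.5-fold range of CPM per kb within a library on day 0. On day 2 they spanned a 5.18- to 7.08-fold range. Their coefficient of variation was 57.9% to 66.8% on day 0 and 48.5% to 56.1% on day 2. The 17 subunit genes of the 19S particle were more even, with a 2.63- to 3.91-fold range on day 0 and 2.81- to 4.77-fold on day 2. The median level of the core genes was 24.2 ± 2.47 CPM per kb in the CTL group on day 0 and 72.4 ± 3.40 on day 2, and that of the 19S subunit genes 23.9 ± 1.58 and 55.2 ± 0.615 (SD over 3 libraries). In the LIP group the same medians were 22.7 ± 0.593 and 81.3 ± 16.9 for the core and 24.5 ± 1.99 and 61.4 ± 10.5 for the 19S particle. The 3 assembly chaperones stayed far lower, at medians of 8.80 ± 1.65 and 10.8 ± 0.483 CPM per kb in the CTL group.

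**Figure D1:**
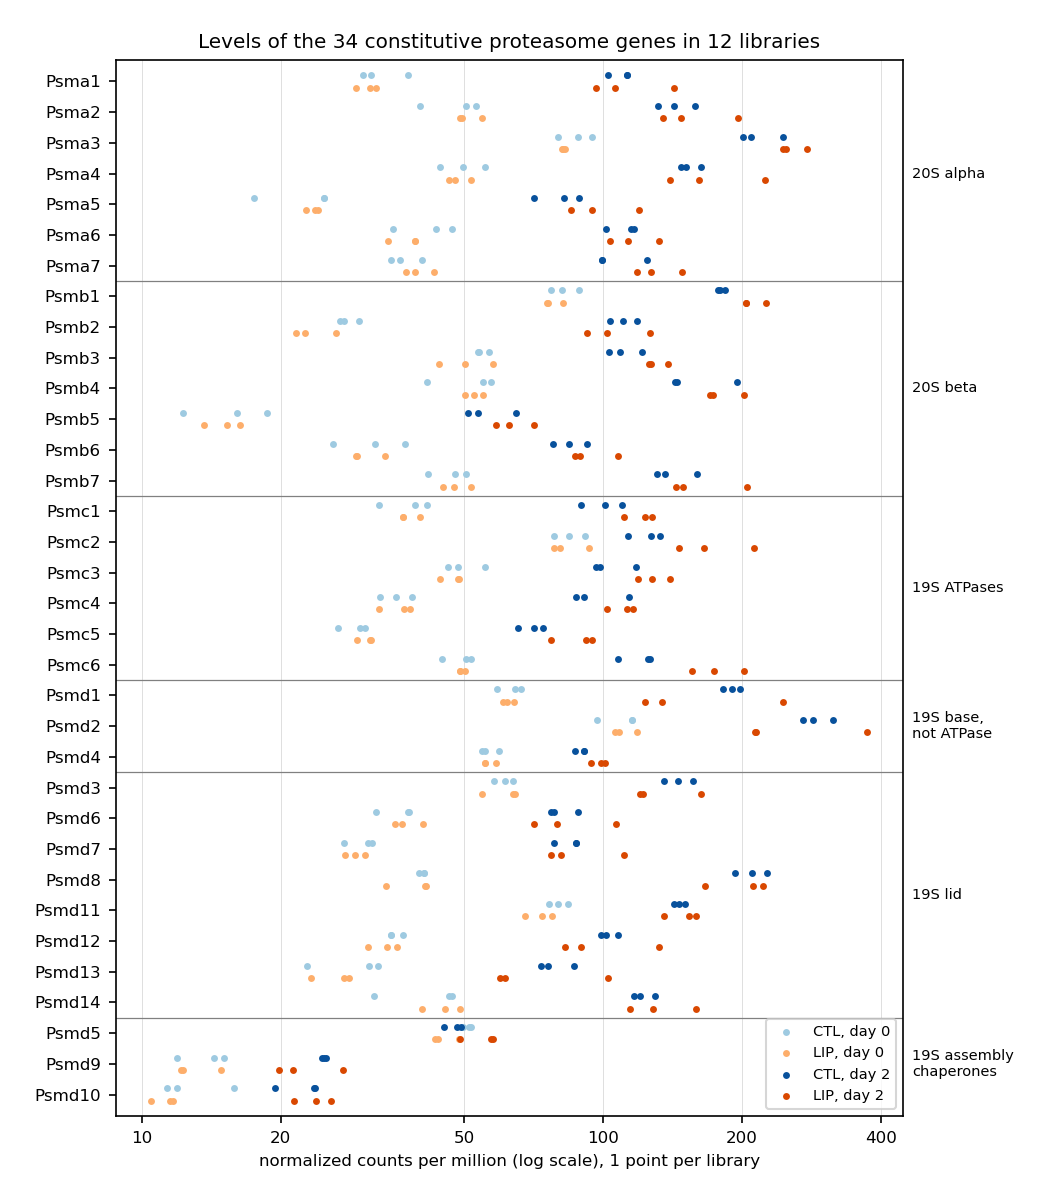
Level of each of the 34 genes in the 12 libraries, in CPM on a log scale, with 1 point per library colored by group and the genes ordered by their place in the proteasome. For 33 genes the day 2 libraries of the CTL group sit to the right of its day 0 libraries, and for Psmd5 they sit slightly to the left.

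The comparison of day 2 with day 0 asked how the proteasome genes changed when the cells were stimulated in culture. In the CTL group 33 of the 34 members rose at an adjusted p below 0.05 (edgeR quasi-likelihood test, Benjamini-Hochberg over all genes), against 35.3% of the 15475 genes tested. The median member changed by 1.42 on the log2 scale, a 2.67-fold rise, while the median of all genes was -0.02. In the LIP group all 34 rose, against 36.6% of all genes, with a median of 1.61 on the log2 scale, or 3.05-fold, beside -0.00 for all genes. The libraries of the 2 days did not overlap upwards for 33 members for CTL and 34 for LIP, against 37.2% and 37.4% of all genes. By the threshold of the study, an unadjusted p below 0.05 and more than 1 on the log2 scale, 28 members rose for CTL and 31 for LIP, against 21.2% and 22.1% of all genes, and none fell. Because RNA was measured in bulk as shares of a library, more RNA per cell and more cells of a kind cannot be told apart, and a rise means a rise relative to the other genes. Upper-quartile scaling and library totals alone moved the median of all genes itself to between -0.36 and -0.21, and with it the members' medians, to between 1.13 and 1.29. Relative to the median of all genes, the median was 1.44 in CTL and 1.61 in LIP under each of them. Without CTL 94, 33 members were again called in the CTL group, against 34% of all genes, with a median of 1.48.

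The 20S genes rose in both groups without exception. All 7 alpha genes rose in both groups, by 1.32 to 1.85 on the log2 scale in the CTL group and by 1.64 to 2.09 in the LIP group. All 7 beta genes rose as well, by 1.02 to 1.98 and by 1.36 to 2.18. Psmb5, the chymotrypsin-like peptidase, stood at 18.7, 12.3 and 16.1 CPM in the CTL libraries of day 0 and at 50.8, 53.6 and 64.8 CPM in those of day 2. The LIP libraries gave 15.3, 13.6 and 16.3 CPM on day 0 and 70.7, 62.6 and 58.6 CPM on day 2. The days did not overlap in either group, and the log2 fold change was 1.85 ± 0.16 (SE; adjusted p = 2.02e-07) for CTL and 2.08 ± 0.16 (adjusted p = 6.31e-08) for LIP. The caspase-like Psmb6 rose by 1.42 ± 0.14 and 1.63 ± 0.14, and the trypsin-like Psmb7 by 1.61 ± 0.14 and 1.79 ± 0.14, on the same scale. Psmb2, a structural beta subunit, rose from 27.4, 29.6 and 26.8 CPM to 103, 118 and 110.4 CPM in the CTL group, the second largest rise of all members at 1.98 ± 0.13, and by 2.18 ± 0.13 in the LIP group. The alpha subunit gene Psma5 went from 24.1, 23.8 and 22.7 CPM to 119.8, 85.4 and 94.6 CPM in the LIP group, a change of 2.09 ± 0.16.

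The 19S genes rose less evenly. The 6 ATPase genes rose by 0.55 to 1.45 on the log2 scale in the CTL group and by 1.06 to 1.84 in the LIP group, the 3 other base subunits by 0.66 to 1.59 and 0.79 to 1.43, and the 8 lid genes by 0.87 to 2.38 and 1.04 to 2.37. The largest change of any member was that of Psmd8, a lid subunit, which stood at 39.8, 40.9 and 40.8 CPM on day 0 and at 193, 227 and 211 CPM on day 2 in the CTL group. Its log2 fold change was 2.38 ± 0.13 (adjusted p = 3.03e-09) in the CTL group and 2.37 ± 0.13 (adjusted p = 3.09e-09) in the LIP group, a 5.19- and a 5.17-fold rise. No other member changed by so nearly the same amount in the 2 groups. Among the smallest rises were those of Psmd4, at 0.66 ± 0.08 for CTL and 0.79 ± 0.08 for LIP, and of the ATPase Psmc2, at 0.55 ± 0.13 in the CTL group (adjusted p = 0.00219). The rise of Psmc2 in the CTL group was 0.27 under upper-quartile scaling and was then not called.

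The 3 assembly chaperones had a median of 0.78 on the log2 scale in CTL and 0.80 in LIP, below the medians of the other groups of members, a difference that was not tested. Psmd9 rose by 0.85 ± 0.15 for CTL and 0.80 ± 0.15 for LIP on the log2 scale, and Psmd10, the oncoprotein known as gankyrin, by 0.78 ± 0.15 and 1.08 ± 0.15. Psmd5, which binds base ATPases during assembly, was the member that did not rise in the CTL group. It stood at 51.1, 51.8 and 49.7 CPM on day 0 and at 49.2, 45.1 and 48.1 CPM on day 2. Every CTL library of day 2 was thus below every CTL library of day 0, but the change of -0.10 ± 0.10 was not called (adjusted p = 0.393). It was called as a fall under upper-quartile scaling (-0.38) and library totals alone (-0.28), which shift all genes downwards as given above. In the LIP group Psmd5 went from 48.6, 43.2 and 43.8 CPM to 57.7, 57.0 and 48.8 CPM, a change of 0.27 ± 0.10 (adjusted p = 0.0252). The sign of this last change rested on the scaling, being -0.05 under upper-quartile scaling and -0.09 with library totals alone, and 4 of the 12 fits that left out 1 library, those without LIP 93 or LIP 94 of day 0 and LIP 90 or LIP 96 of day 2, did not call it (adjusted p = 0.0551 to 0.0756). It was also not called without a filter on low counts, with at least 10 counts asked of every library or in a fit to the 6 LIP libraries (adjusted p = 0.0604, 0.104 and 0.0659).

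**Figure D2:**
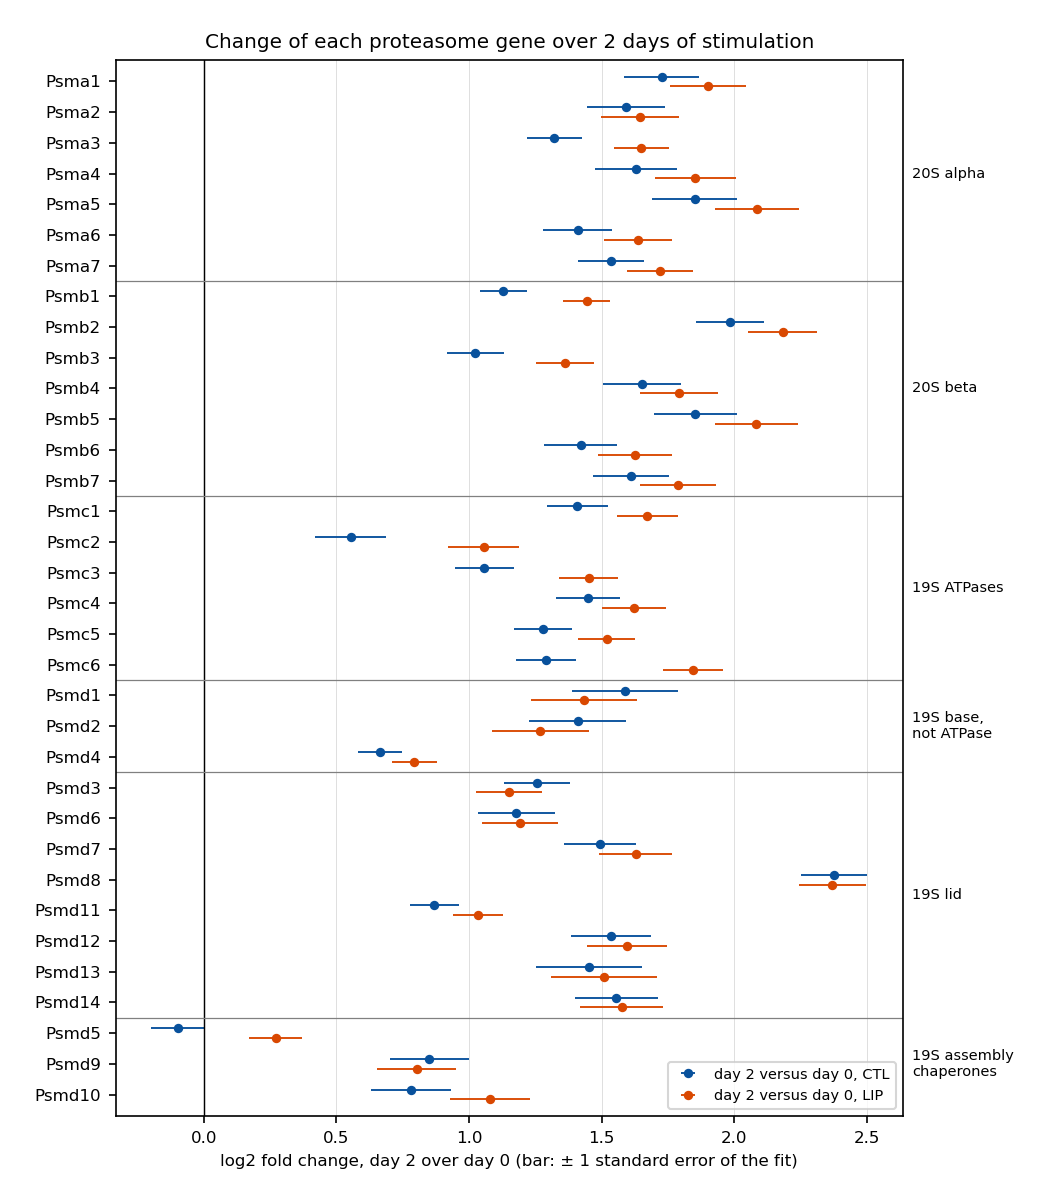
Log2 fold change of each gene between day 0 and day 2, with ± 1 standard error, for the CTL group (blue) and the LIP group (orange). Psmd8 lies farthest to the right in both groups and Psmd5 lies near 0, and 29 of the 34 genes have the larger value in the LIP group.

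The 2 groups were ordered alike. Across the 34 members the log2 fold changes of the CTL and LIP groups, which share no library but were normalized together, had a Pearson's r of 0.93 and a Spearman's rho of 0.86, beside 0.91 and 0.92 over all 15475 genes. The change was larger in the LIP group for 29 of the 34 members, against 49.9% of all genes, and the median difference was 0.18 on the log2 scale, beside -0.00 over all genes. Without LIP 90 the median difference was 0.09 and 21 of the 34 were above 0, without CTL 94 it was 0.18 with 25 above 0, and without CTL 88 it was 0.12 with 27 above 0. No member passed the edgeR test of that difference, the interaction of group and day (adjusted p of 0.121 at the lowest), and 0.0517% of all genes did. At an unadjusted p below 0.05 there were 7 members, all with the larger rise in the LIP group, against 8.65% of all genes in that direction. Without LIP 90 there were 6 with the larger and 2 with the smaller rise, against 12.3% and 11.9% of all genes. Of the day 0 fits that left out 1 library, the one without LIP 93 gave 2 and the one without CTL 94 gave 3, against 6.21% and 7.45% of all genes. The count was 4 without CTL 88 or LIP 92, against 6.55% and 6.79%, and 5 without LIP 94 of day 0, against 6.93%. Without CTL 89 it stayed at 7, against 7.89%. With library totals alone it was 1, against 3.87%. The 7 with all libraries were the ATPases Psmc6 at 0.55 ± 0.16, Psmc2 at 0.50 ± 0.19 and Psmc3 at 0.39 ± 0.16, and Psmd5, Psmb3, Psma3 and Psmb1 at 0.31 to 0.37. The peptidase genes Psmb5, Psmb6 and Psmb7 were at 0.23 ± 0.22, 0.21 ± 0.19 and 0.18 ± 0.20. The lowest values were those of Psmd1 (-0.16), Psmd2 (-0.14) and Psmd3 (-0.11), scaffold subunits of the base and lid. DESeq2 called 1 member, Psmc6, in the interaction, against 3.36% of all genes. With library totals alone the median interaction was 0.01, since the median of all genes moved to -0.17.

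The day 0 comparison of LIP with CTL asked whether ligature altered these genes in cells taken straight from the spleen. No member was called by edgeR, against 0.427% of the 14064 genes tested, and DESeq2 called none, against 1.44%. At an unadjusted p below 0.05 there was 1 member, against 13.9% of all genes. The members' median was -0.03 on the log2 scale and that of all genes 0.01, with members between -0.25 and 0.12. Psmb2 had the lowest value, with 22.6, 21.5 and 26.3 CPM in the LIP libraries below all of 27.4, 29.6 and 26.8 CPM in the CTL libraries (-0.25 ± 0.11, unadjusted p = 0.0482, adjusted p = 0.356). Psmd5 was the other member without overlap, at -0.16 ± 0.08 (adjusted p = 0.414), and Psmd10 had the second lowest value at -0.20 ± 0.16. Groups that did not overlap were found for 2 of 34 members, both lower in LIP, and for 9.85% of all genes in that direction. The highest values, those of Psmd14 (0.12 ± 0.14), Psma7 (0.10 ± 0.10) and Psma2 (0.10 ± 0.11), had adjusted p-values of 0.671 to 0.749, and Psmb5, Psmb6 and Psmb7 lay at -0.04 ± 0.16, -0.04 ± 0.13 and 0.05 ± 0.10. Without CTL 94 there was again no call among the members, against 4.59% of all genes, and their median was -0.02. The sign of this median was not stable: it was -0.09 without CTL 89, with 6 of 34 above 0, but 0.01 without CTL 88, with 19 above 0, and 0.04 with library totals alone, beside 0.08 over all genes.

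On day 2 the same comparison asked whether the stimulated cells of the 2 groups differed. No member was called by edgeR, and neither was any of the 14041 genes tested (0%), although 16.5% of them had an unadjusted p below 0.05. At an unadjusted p below 0.05 there were 4 members, all of them ATPases of the base and higher in the LIP group, against 8.33% of all genes in that direction. This count rested on single libraries: it was 1 without CTL 93 and 8 without CTL 97, against 4.37% and 7.98% of all genes, and without LIP 90 there were 5 higher and 4 lower members, against 15.6% and 14.2%, of which 3 were ATPases. The LIP libraries were all above the CTL libraries for 9 members, against 10.9% of all genes. The members' median was 0.14 on the log2 scale, beside -0.01 for all genes, and 26 of the 34 were above 0, against 49.2% of all genes. With library totals alone these medians were 0.05 and -0.09. Psmc6 stood at 126, 108 and 125 CPM in the CTL libraries and at 174, 202 and 156 CPM in the LIP libraries, a difference of 0.56 ± 0.13 (unadjusted p = 0.00258, adjusted p = 0.135). Psmc2 stood at 127, 113 and 133 CPM in the CTL libraries and at 146, 213 and 166 CPM in the LIP libraries, a difference of 0.48 ± 0.16 (adjusted p = 0.198). The LIP libraries lay above all CTL libraries for both genes, and also for Psmc1, Psmc3 and Psmc5. The differences of Psmc5 and Psmc3 were 0.31 ± 0.12 and 0.30 ± 0.12.

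The remaining ATPase, Psmc4, overlapped between the groups at 0.17 ± 0.13. DESeq2 called Psmc6, against 3.45% of all genes, and the fit to all 12 libraries called Psmc6 and Psmc2, against 5.01%. The core genes had a median of 0.17 on the log2 scale with 13 of 14 above 0, and Psmb5, Psmb6 and Psmb7 lay at 0.17 ± 0.13, 0.15 ± 0.13 and 0.21 ± 0.16. The lowest values were those of Psmd1 (-0.19 ± 0.24), Psmd2 (-0.14 ± 0.21) and Psmd9 (-0.13 ± 0.15). For Psmd1 and Psmd2 the LIP libraries lay on both sides of the CTL libraries. Psmd1 was at 189.9, 182 and 198 CPM in the CTL libraries and at 246, 123 and 134 CPM in LIP 90, 96 and 97. Psmd2 was likewise at 272, 285 and 316 CPM in the CTL libraries, above them at 374 CPM in LIP 90, and below them at 213 and 214 CPM in LIP 96 and LIP 97.

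The library LIP 90 stood out among them. It was the highest of the 6 day 2 libraries for 27 of the 34 members, above every CTL library for 33, and its median member lay 0.35 above the CTL mean on the log2 scale. LIP 96 and LIP 97 had medians of 0.07 and 0.06, with 12 and 11 members above every CTL library and 10 and 11 below. The same counts over all genes are not given here, so these are not shown to be particular to the members. Summed over the 34 genes, LIP 90 held 5054 CPM, LIP 96 and LIP 97 held 4163 and 4024 CPM, and the CTL libraries 3905 to 4248 CPM. The activation marker Tfrc was at 1614 CPM in LIP 90, at 286 and 569 CPM in LIP 96 and LIP 97 and at 1118 to 1312 CPM in the CTL libraries. The 5 activation markers summed to 7453 CPM in LIP 90, 5336 and 5553 CPM in LIP 96 and LIP 97 and 6342 to 6455 CPM in the CTL libraries. Without LIP 90 the difference between LIP and CTL was -1.51 for Tfrc, -0.47 for Myc, -0.12 for Mki67, 0.01 for Top2a and 0.09 for Il2ra. The CD8 markers were highest in LIP 96 and LIP 97, the B-cell markers in these and CTL 97, and the NK list was higher in all LIP libraries, as given above. Of all markers, edgeR called 5 without LIP 90, when it called 13.9% of all genes. These were Tfrc (adjusted p = 0.00555), Cd8b1 at 1.04 (adjusted p = 0.0358), the B-cell marker Cd79b at 1.57 (adjusted p = 0.0338), Gzmb at 0.93 (adjusted p = 0.00398) and Cd3d at 0.49 (adjusted p = 0.0283). The part of these differences between libraries in the members' values was not tested.

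**Figure D3:**
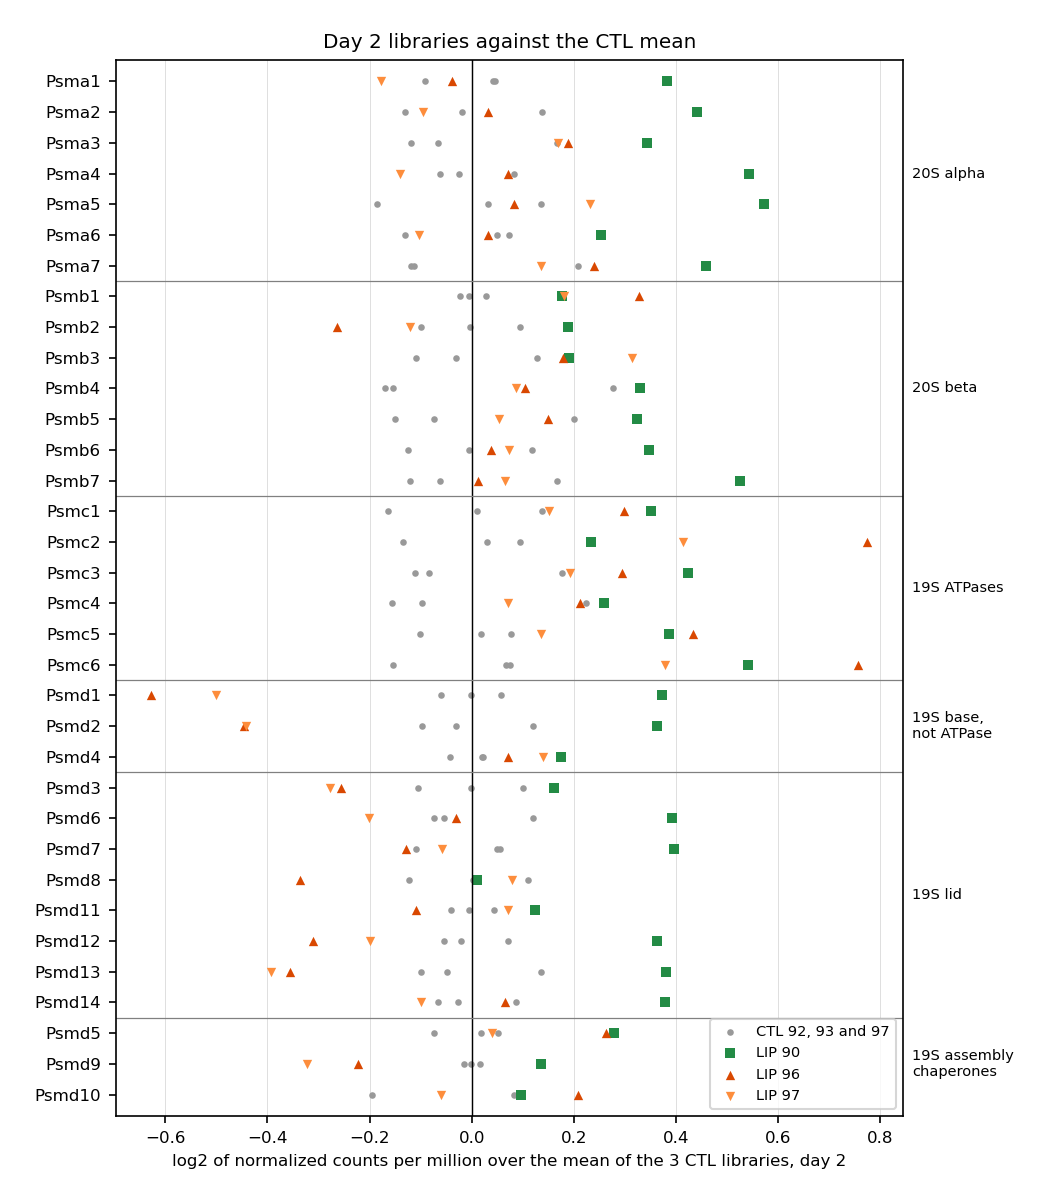
Log2 of each day 2 library's level over the mean of the 3 CTL libraries, for each gene, with CTL libraries as gray points and the LIP libraries as a square (LIP 90), an upward triangle (LIP 96) and a downward triangle (LIP 97). LIP 90 lies right of 0 for all 34 genes, while LIP 96 and LIP 97 lie right of 0 for the ATPases and left of it for Psmd1, Psmd2, Psmd3, Psmd12, Psmd13 and Psmd9.

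Without LIP 90 the median of the members was 0.06 on the log2 scale, with 20 of 34 above 0, and 4 members were called. That is near the background, since 13.9% of the 14453 genes tested were then called. The called members went both ways: Psmc2 (0.62 ± 0.13, adjusted p = 0.0134) and Psmc6 (0.60 ± 0.13, adjusted p = 0.0182) were higher in the LIP group, and Psmd1 (-0.55 ± 0.11, adjusted p = 0.0104) and Psmd2 (-0.43 ± 0.11, adjusted p = 0.0301) were lower. The ATPases kept a median of 0.29, beside 0.30 with all libraries, and all 6 stayed above 0. The median of the 14 core genes went from 0.17 to 0.09, with 9 of 14 above 0, that of the 7 alpha genes from 0.17 to -0.01, and that of the 8 lid genes from -0.00 to -0.10. The same 4 members were called in the interaction without LIP 90, again 2 in each direction, where 10.1% of all genes were called. The rise from day 0 to day 2 was called for all 34 members but Psmd5 in the LIP group without LIP 90, with a median of 1.48. The share of all genes that rose in that fit is not given here, and with all libraries it was 36.6%.

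The rest of the pathway was followed in 44 further genes, of which 43 were found and 41 were expressed enough to test. Of these, 27 rose and 4 fell between day 0 and day 2 in the CTL group, against 35.3% and 33.7% of all genes, with a median of 0.71 on the log2 scale, and 32 rose and 4 fell in the LIP group, against 36.6% and 35.2%, with a median of 0.86. The 2 that were not tested, the testis subunit Psma8 and the thymus subunit Psmb11, did not exceed 0.836 CPM in any library. Among the 5 genes that assemble the core, all rose in both groups. Pomp, the chaperone that completes the core, rose by 1.53 ± 0.17 for CTL and 1.49 ± 0.17 for LIP, and Psmg1, which with Psmg2 builds the alpha ring, by 1.298 ± 0.18 and 1.72 ± 0.17. Psme1 and Psme2, which form an alternative cap induced by interferon, rose by 1.16 ± 0.12 and 1.21 ± 0.14 in the CTL group and by 1.34 ± 0.12 and 1.63 ± 0.14 in the LIP group.

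The widest changes of the pathway lay elsewhere. Uchl5, a deubiquitinase of the 19S particle, rose by 1.86 ± 0.35 in the CTL group, and the proteasome-bound thioredoxin Txnl1 by 1.61 ± 0.15. Psmb10 and the shuttle factor Ubqln2 fell in the CTL group, by 1.20 ± 0.15 and 1.17 ± 0.13 on the log2 scale. Nfe2l1, which encodes the transcription factor NRF1 that drives proteasome genes when the proteasome is impaired, changed by 0.47 ± 0.22 in the CTL group (adjusted p = 0.0681) and rose by 1.57 ± 0.22 in the LIP group (adjusted p = 2.43e-05). The CTL change was called at a like size, 0.45 to 0.51, in a fit to the 6 CTL libraries (adjusted p = 0.00151), without a filter on low counts (0.00182), without LIP 90 (9.4e-05) and without LIP 96 (0.0452). The difference between the groups, 1.09 ± 0.31 in the interaction, was not called (adjusted p = 0.118) but was without LIP 90, without a filter on low counts and with DESeq2. Nfe2l1 stood on day 2 at 104, 121 and 109.7 CPM in the CTL libraries and at 125, 283 and 266 CPM in LIP 90, 96 and 97. All 3 LIP libraries were above the CTL libraries, LIP 90 by little, and the difference of 1.006 ± 0.28 was not called (unadjusted p = 0.0059, adjusted p = 0.159). Without LIP 90 it was 1.32 ± 0.11 (adjusted p = 9.97e-05), and DESeq2 called it with all libraries.

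Of the 41 pathway genes edgeR called 1 between LIP and CTL on day 0, against 0.427% of all genes, and none on day 2 or in the interaction, where DESeq2 called Psmb8 and Nfe2l1 on day 2 and Nfe2l1 among others in the interaction. The fixed genes of the immunoproteasome, its cap, Pomp, Psmg1 and Nfe2l1 lay between -0.08 (Nfe2l1) and 0.19 (Psmb9) on day 0. The ubiquilin Ubqln1, a shuttle factor that brings ubiquitinated proteins to the proteasome, was then at 122, 132 and 124 CPM in the CTL libraries and at 100.2, 82.7 and 93.8 CPM in the LIP libraries. The groups did not overlap, and the difference was -0.44 ± 0.08 on the log2 scale (adjusted p = 0.0407). The call was lost with library totals alone (adjusted p = 0.0704) and in the fit to all 12 libraries (adjusted p = 0.198). It was also lost in 5 of the 6 fits that left out 1 library, all but the one without CTL 94 (adjusted p = 0.0518 to 0.286). Over the alternative runs the difference itself lay between -0.51 and -0.37. At an unadjusted p below 0.05, 1 pathway gene was higher and 6 were lower in LIP on day 0, against 6.67% and 7.2% of all genes. On that day 11 of the 41 were above 0, against 51.9% of all genes, and 8 were lower without overlap, against 9.85%. On day 2, 9 pathway genes were higher and 1 was lower, against 8.33% and 8.2%, and in the interaction 11 and 1, against 8.65% and 7.28%. Without LIP 90 the splits were less one-sided. There were then 14 higher and 8 lower on day 2, against 15.6% and 14.2% of all genes. In the interaction there were 13 and 5, against 12.3% and 11.9%. Without CTL 93 or CTL 92 there were 3 and 5 higher on day 2, against 4.37% and 5.3% of all genes. The 6 lower on day 0 became 2 without CTL 88, against 5.01%, and without CTL 94 there were 3 higher and 7 lower, against 10.2% and 11%. By adjusted p, without CTL 94 edgeR called 2 pathway genes on day 0, both lower in LIP, against 4.59% of all genes. Without LIP 90 it called 10 on day 2, 7 higher and 3 lower, against 13.9%, and 9 in the interaction, 7 higher and 2 lower, against 10.1%. The 9 of day 2 at an unadjusted p below 0.05 with all libraries included Psmb8, Psmb9, Psmb10, Psme2 and Psmg1 at 0.37 to 0.55. For each of these genes all LIP libraries lay above all CTL libraries. That held for 12 of the 41 pathway genes on day 2, against 10.9% of all genes. In the other direction 1 did not overlap, against 10.5%.

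The immunoproteasome genes moved in different directions. Psmb8 rose by 0.69 ± 0.12 for CTL and 1.06 ± 0.12 for LIP, and Psmb9 by 1.37 ± 0.11 and 1.56 ± 0.11. Psmb10 fell in both groups, by 1.20 ± 0.15 and 0.56 ± 0.14 on the log2 scale. It stood at 44.0, 37.3 and 45.1 CPM in the CTL libraries of day 0 and at 18.4, 17.1 and 19.6 CPM in those of day 2. Each inducible gene was then set against the constitutive gene whose place its product takes, as a log2 ratio within each library, and the days were compared by an exact permutation test that exchanged the day within the CTL and within the LIP group. These ratios are not per length, so only their changes are compared.

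The ratio of Psmb10 to Psmb7 was -0.15 ± 0.06 on the log2 scale in the CTL group on day 0 and -2.95 ± 0.07 on day 2, and -0.27 ± 0.20 and -2.61 ± 0.42 in the LIP group (SD, n = 3). Its mean change of -2.58 had p = 0.005, the smallest that the 400 exact permutations allow (two-sided), and 0.0075 after adjustment over the 3 ratios. The ratio of Psmb8 to Psmb5 fell by 1.10 on the log2 scale, with the same exact permutation p-values, from 3.13 ± 0.25 to 1.96 ± 0.05 in the CTL group and from 3.28 ± 0.07 to 2.25 ± 0.21 in the LIP group. The ratio of Psmb9 to Psmb6 changed by -0.06 (exact permutation p = 0.675). Between LIP and CTL the mean ratios differed by -0.12 to 0.34 on the log2 scale within a day, and the 6 comparisons gave exact permutation p-values of 0.1 to 0.6. With 3 libraries against 3, 0.1 is the smallest p that can be reached, so that no difference could pass 0.05.

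**Figure D4:**
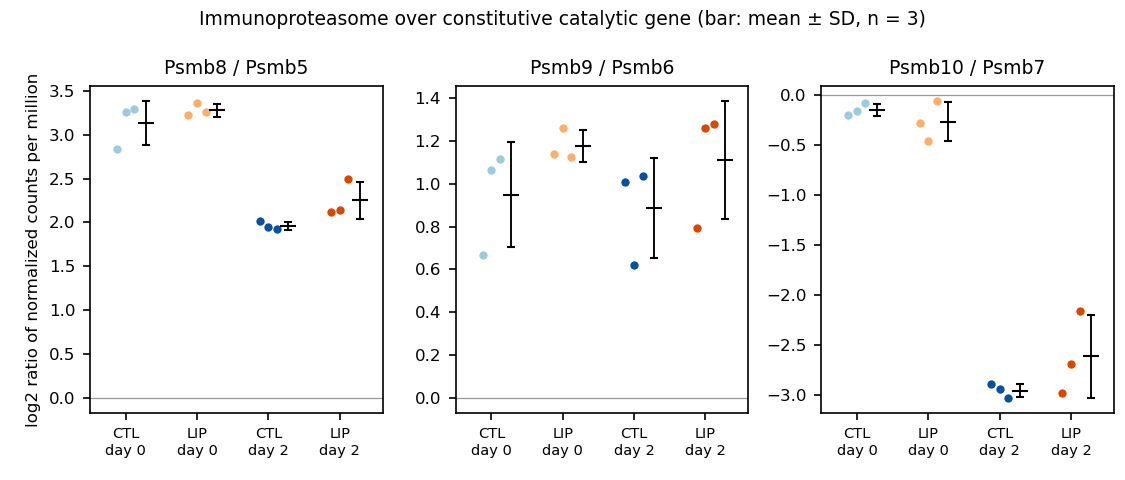
Log2 ratio of an immunoproteasome gene to its constitutive counterpart in each library, computed from CPM, with points colored by group and day and bars for the mean ± SD of 3 libraries. The Psmb8 and Psmb10 ratios are lower on day 2 in all libraries of both groups, and the Psmb9 ratio overlaps between the days.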

How the data were processed

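RNA of splenic CD4+ T cells from 12 libraries was sequenced by the authors after rRNA depletion, as directional paired-end libraries. Per the labels and the study's methods the authors trimmed reads with Trimmomatic (0.38 per the labels, another version in the methods), checked them with FastQC 0.11.9 and counted genes with RSEM 1.3.0 and Bowtie2 on GRCm39. The annotation release, and whether counting used strand, are not given in the sources used here. The authors deposited expected counts per gene, and 97 of the 408 member values were not whole. The authors' result tables hold normalized values, fold changes and p-values. They were used only to pair gene symbols with identifiers, and 2 columns of per-sample values there match no labelled sample and were not used.

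Expected counts were rounded. Library sizes were normalized by TMM, low genes were removed with filterByExpr, and groups were compared with edgeR 4.0.16 (R 4.3.3) quasi-likelihood tests, with Benjamini-Hochberg adjustment over all genes tested and a threshold of 0.05. Comparisons within a day used its 6 libraries, and the others used all 12 libraries in one fit of 4 groups. DESeq2 1.42.0 was an alternative, and the other alternatives were 3 other scalings, 2 other filters, a correction for length and GC content, and leaving out each library. Errors are the SE of the fit or the SD over libraries. Lengths are those of the canonical transcripts of GENCODE M39. Counts of 5 named pseudogenes of members did not exceed 1 in any library.

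Levels are described for every member. Tests are given for Psmb5, Psmb6 and Psmb7, for the 3 highest and 3 lowest members of each comparison, and for any member or pathway gene called between LIP and CTL or in the interaction. Of the pathway, 8 fixed genes and the 2 highest and 2 lowest of the CTL day comparison are named. Results of single pathway genes beyond these are in part not reported here. The members, lists and tests were chosen with earlier results of these data known. Psmd10 over the culture, Psmc1, Psmc3 and Psmc4 on day 2, Psmd5, Psmb3, Psma3 and Psmb1 in the interaction, the single markers, the pathway genes other than Nfe2l1 in the day 2 and interaction comparisons, the pathway genes called by DESeq2 and the members named in the plot of day 2 libraries were named after their values were seen.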

Additional observations from a re-analysis of the deposited data

How the results depend on the processing

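No paired analysis was possible because the compared groups share fewer than 2 library numbers. Of the 5 counts of called members, those of day 2 against day 0 stayed within 1.5 times in every alternative run. The count between LIP and CTL on day 2 went from 0 to 1 with DESeq2 and with no filter, to 2 in the fit to all 12 libraries, and ranged from 0 to 4 when 1 library was left out. The interaction count was 1 with DESeq2 and 0 to 4 when 1 library was left out, in both cases highest without LIP 90. The cause was not tested. Calls over all genes moved far more: from 60 on day 0 to 202 with DESeq2, 645 with no filter, 12 in the fit to all libraries and 658 without CTL 94, from 0 on day 2 to 485, 662 and 775, and from 8 in the interaction to 520 with DESeq2 and 815 with no filter. Without LIP 90 they were 2014 on day 2 and 1596 in the interaction.

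Upper-quartile scaling and library totals alone lowered the members' median change over the culture to 1.13 and 1.23 in the CTL group and to 1.29 and 1.25 in the LIP group, and library totals alone lowered the median interaction to 0.00868. The split of all calls changed with them, from 5456 higher and 5220 lower in the CTL group to 4259 and 6827 and to 4621 and 6272, from 5665 and 5446 in the LIP group to 4293 and 7084 and to 4138 and 7285, and with library totals alone from 8 and 52 on day 0 to 13 and 30 and from 5 and 3 in the interaction to 9 and 88. When 1 library was left out, the LIP median ranged from 1.48 to 1.68 and the change of the Psmb9 to Psmb6 ratio from -0.13 to 0.0166.

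Some differences changed sign, among them the members' median on day 0 with library totals alone and without CTL 88. With library totals alone on day 0, Psmb5 was at 0.0277, Psmb6 at 0.0316, Psmb10 at 0.000847 and Pomp at 0.0309. Psmd5 in the LIP group was at -0.0483 with upper-quartile scaling and -0.0896 with library totals alone. Leaving out 1 library gave, on day 0, ranges of -0.20 to 0.0949 for Psmb5, -0.17 to 0.0844 for Psmb6, -0.0303 to 0.10 for Psmb7, -0.0213 to 0.18 for Psma2, -0.0539 to 0.22 for Psmd14, -0.0216 to 0.0844 for Psme1, -0.0891 to 0.14 for Psme2 and -0.10 to 0.0164 for Pomp. On day 2 it gave -0.43 to 0.0127 for Psmd2 and -0.34 to 0.0351 for Pomp. In the interaction it gave -0.00523 to 0.28 for Psmb7, -0.54 to 0.0311 for Psmd1, -0.46 to 0.00255 for Psmd2 and -0.31 to 0.0883 for Pomp.

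A member that was not called is not shown to be alike in both groups.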
